A study of Homo sapiens with 18 samples.

Results

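HMGB1, HMGB2 and HMGB3 were followed in the ribosome profiles and mRNA-seq of IMR90 cells, a line of human fetal lung fibroblasts, because inflachromene (ICM), the compound tested in the series, binds HMGB1 and HMGB2, of which HMGB3 is a close relative. The 3 genes were chosen by symbol from the 38716 gene symbols in each table, a rule that uses no measured value. Earlier results of these data were known when they were chosen. The 18 libraries formed 6 groups of 3 replicates. Young means proliferating low-passage cells, old means high-passage cells in replicative senescence, and ICM means low-passage cells given the compound. Each condition was profiled by Ribo-seq, which sequences the mRNA fragments covered by ribosomes, and by mRNA-seq of poly(A)-selected RNA. Per the study's methods both libraries of a number came from the same cell lysate, made with cycloheximide. All groups were 1 cell line grown in culture, so the values describe these cultures and the p-values measure only the spread between these samples.

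HMGB proteins are abundant chromatin proteins that bind DNA with little regard to sequence and bend it through a pair of domains called HMG boxes, followed by an acidic tail. HMGB1 is present in most cell types, whereas HMGB2 is best known from dividing cells and HMGB3 from early development and stem cells. Outside the cell, HMGB1 acts as an alarm signal that receptors of innate immunity recognise, and loss of HMGB1 and HMGB2 from the nucleus is a known mark of senescent fibroblasts. The measurements here are of RNA and of ribosome footprints. They do not show where the proteins were, nor how much protein there was.

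On the GRCh37 assembly with the GENCODE v44 annotation, HMGB1 lies at chr13:31030841-31191734 on the minus strand, HMGB2 at chr4:174252527-174255583 on the minus strand and HMGB3 at chrX:150148982-150159244 on the plus strand. Their canonical transcripts each have 5 exons, of which 4 are coding, and coding sequences of 648, 630 and 603 bases with the stop codon. The promoters of HMGB1 and HMGB3 are shown as a description. Whether they had a part in the falls of the mRNAs was not tested. Each window is the 250 bases before the start that matches the first base of the canonical transcript, from RefSeq on GRCh38.p14. It was the first of 3 entries for HMGB1 at chr13:30465937-30466186 on the minus strand and the first of 2 entries for HMGB3 at chrX:150983085-150983334 on the plus strand, and HMGB2 has no entry in the table used. Capitals mark the CCAAT boxes, GC boxes and cell cycle homology elements named below, on either strand.
HMGB1: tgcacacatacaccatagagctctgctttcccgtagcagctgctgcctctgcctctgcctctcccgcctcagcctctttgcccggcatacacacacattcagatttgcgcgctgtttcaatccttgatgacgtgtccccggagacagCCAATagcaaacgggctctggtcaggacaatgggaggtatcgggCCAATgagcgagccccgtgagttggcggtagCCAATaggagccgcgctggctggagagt
HMGB3: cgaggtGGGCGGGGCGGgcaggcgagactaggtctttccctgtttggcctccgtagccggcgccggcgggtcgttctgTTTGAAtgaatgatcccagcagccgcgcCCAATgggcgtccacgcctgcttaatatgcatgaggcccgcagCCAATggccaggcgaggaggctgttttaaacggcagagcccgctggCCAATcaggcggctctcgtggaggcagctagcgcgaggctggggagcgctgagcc

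Both windows held 3 CCAAT boxes, the binding sequence of the factor NF-Y, which many promoters of cell cycle genes carry. In HMGB1 their first bases lay 103, 59 and 28 bases before the start, and in HMGB3 they lay 144, 101 and 55 bases before it. Of 35116 promoter windows of this length, 32.0% held at least 1 CCAAT box on either strand and 2.93% held at least 3. The HMGB3 window also held 2 overlapping GC boxes (GGGCGG), which 42.6% of all windows held, and 1 match to the cell cycle homology element (TTTGAA and also TTCGAA), which 14.3% of all windows held. None of the E2F site letters searched on both strands (TTTCCCGC as well as its variants TTTGGCGC and also TTTCGCGC), found in 2.32% of all windows, was in either window. The windows of the other entries differed. Entry 2 of HMGB1 held 1 CCAAT box, 9 GC boxes and 1 match to the cell cycle homology element. Entry 3 of HMGB1 and entry 2 of HMGB3 held no CCAAT box, and they held 2 and 10 GC boxes. A match is a description of letters and not a site of binding.

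The coding sequences are related but not alike. HMGB1 and HMGB2 were identical at 77.1% of 630 aligned coding bases, HMGB1 and HMGB3 at 74.1% of 603, and HMGB2 and HMGB3 at 72.6% of 603. The longest exact stretch shared by any pair is shown because it is as long as the footprint-sized window used here, so that a read could fall on it in either mRNA. It has 29 bases and occupies bases 460 to 488, counted from the A of the start codon, of both coding sequences.
HMGB1 and HMGB2: aaatatgaaaaggatattgctgcatatcg

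Copies of these genes elsewhere in the genome were a larger source of shared sequence. Of the 620 possible 29-base windows of the HMGB1 coding sequence, 93.7% occurred exactly at another place in GRCh37, and of the 599 windows of 50 bases 83.3% did, in every case within an annotated HMGB1, HMGB2 or HMGB3 pseudogene. For HMGB3 the shares were 68.3% and 24.2%, and for HMGB2 they were 7.64% and 1.72%. GENCODE lists 48 pseudogenes named for HMGB1, 1 for HMGB2 and 29 for HMGB3, whereas the deposited tables hold a symbol for only 1 of them, HMGB3P1. The coding counts of HMGB1 were not whole numbers (within 1e-06) in 8 of 9 Ribo-seq and 6 of 9 mRNA-seq libraries. For HMGB2 this was so in 7 and 1, and for HMGB3 in 3 and 4. Fractions were common, at 14.1% to 23.2% of all nonzero values in a library. How reads that match several places were divided is not stated. The level of HMGB1, and of HMGB3 in footprints, is therefore uncertain as the level of a single gene, and HMGB2 is the member with the most sequence of its own.

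Depth separated the assays. The mRNA-seq libraries held 7902427 to 14144455 reads in coding genes. The Ribo-seq libraries held 46239 to 1718521 CDS reads, a 37.2-fold range. ICM replicates 1 to 3 held 225041, 78980 and 46239 CDS reads. Young replicate 1 and old replicate 2, at 54421 and 54708, were shallower than ICM replicates 1 and 2. CDS reads were 15.0% of all Ribo-seq reads in old replicate 2 and 34.4% in young replicate 1. Of 10 fibroblast markers all were detected in every mRNA-seq library, with the lowest value, 65.1 CPM (counts scaled to library size), in PDGFRB, and their summed level was 32230 to 36515 CPM in young, 30493 to 35378 in old and 13899 to 14411 in ICM libraries. The 9 markers of epithelial, endothelial and immune cells summed to 20.7 to 23.7, 33.7 to 36.8 and 58.1 to 69.4 CPM, mostly CD68, a lysosomal protein that is not specific to immune cells, while CDH5 and CD3E were at 0 in all of these libraries. The endothelial marker VWF, at 0 to 3.90 CPM, was called higher in ICM against young (log2 change 3.30, SE 0.38, edgeR adjusted p = 7.12e-08). Whether these shifts had a part in the results below was not tested.

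All 3 genes lost mRNA in both kinds of arrested cells, and HMGB2 lost the most. In mRNA-seq, where reads in the 5′ UTR, CDS and 3′ UTR were summed and scaled to CPM by the TMM method, every old and every ICM library lay below every young library for each member. All 3 were called lower in each of the 3 comparisons (edgeR, adjusted p under 0.05). Falls were common, since 36.1% of 13173 genes were called lower in ICM against young, 33.7% in old against young and 32.6% in ICM against old, and the groups did not overlap in that direction for 37.6%, 34.4% and 33.7% of genes. The count of 3 falling members is thus read against a transcriptome that moved widely, and the sizes of the falls set the members apart more than the calls do. In bulk RNA, fewer cells of a type and less RNA per cell cannot be told apart.

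HMGB1, the most abundant member, was at 393, 360 and 385 CPM in young replicates 1 to 3, at 144, 150 and 138 CPM in old and at 114, 114 and 114 CPM in ICM libraries. The 3 ICM libraries were nearly equal and just under the old ones. The fitted change was -1.73 on the log2 scale (SE 0.06, edgeR adjusted p = 1.09e-16) in ICM against young, -1.40 (SE 0.06, adjusted p = 1.11e-14) in old against young and -0.34 (SE 0.06, adjusted p = 6.72e-05) in ICM against old. In ICM against young 5.07% of tested genes had a lower change, and in old against young 4.58%.

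HMGB2 was at 114, 103 and 114 CPM in young, at 17.7, 22.2 and 21.0 CPM in old and at 4.28, 5.83 and 5.26 CPM in ICM libraries. Its young mean was 5.43 times the old mean and 21.5 times the ICM mean. The ICM and old groups were well apart, with the highest ICM library at 5.83 CPM and the lowest old library at 17.7 CPM. The log2 change was -4.44 (SE 0.11, edgeR adjusted p = 9.69e-20) in ICM against young, -2.43 (SE 0.09, adjusted p = 3.09e-16) in old against young and -2.01 (SE 0.13, adjusted p = 3.65e-12) in ICM against old. Of all tested genes 94, or 0.714%, had a lower change in ICM against young, and 1.21% in old against young.

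HMGB3 was at 49.5, 51.4 and 44.4 CPM in young, at 19.6, 22.2 and 19.5 CPM in old and at 10.2, 10.5 and 11.3 CPM in ICM libraries. Old libraries therefore held HMGB2 and HMGB3 at nearly the same CPM, and ICM libraries held HMGB3 at a higher CPM than HMGB2. These CPM are not scaled to length, and the canonical transcripts have 1441 bases for HMGB2 and 3507 for HMGB3. In CDS reads per kb of coding sequence, HMGB2 held a mean 15.8% of the family sum in old libraries and HMGB3 7.81%. In ICM libraries these means were 5.71% and 7.39%, with overlapping ranges. The log2 change of HMGB3 was -2.18 (SE 0.09, edgeR adjusted p = 2.84e-15) in ICM against young, -1.24 (SE 0.09, adjusted p = 2.32e-11) in old against young and -0.94 (SE 0.10, adjusted p = 4.26e-08) in ICM against old. The comparisons with young share the young libraries, so their values stand side by side and do not support each other. HMGB4, the remaining gene of the family and known from the testis, had no read in any library.

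**Figure D1:**
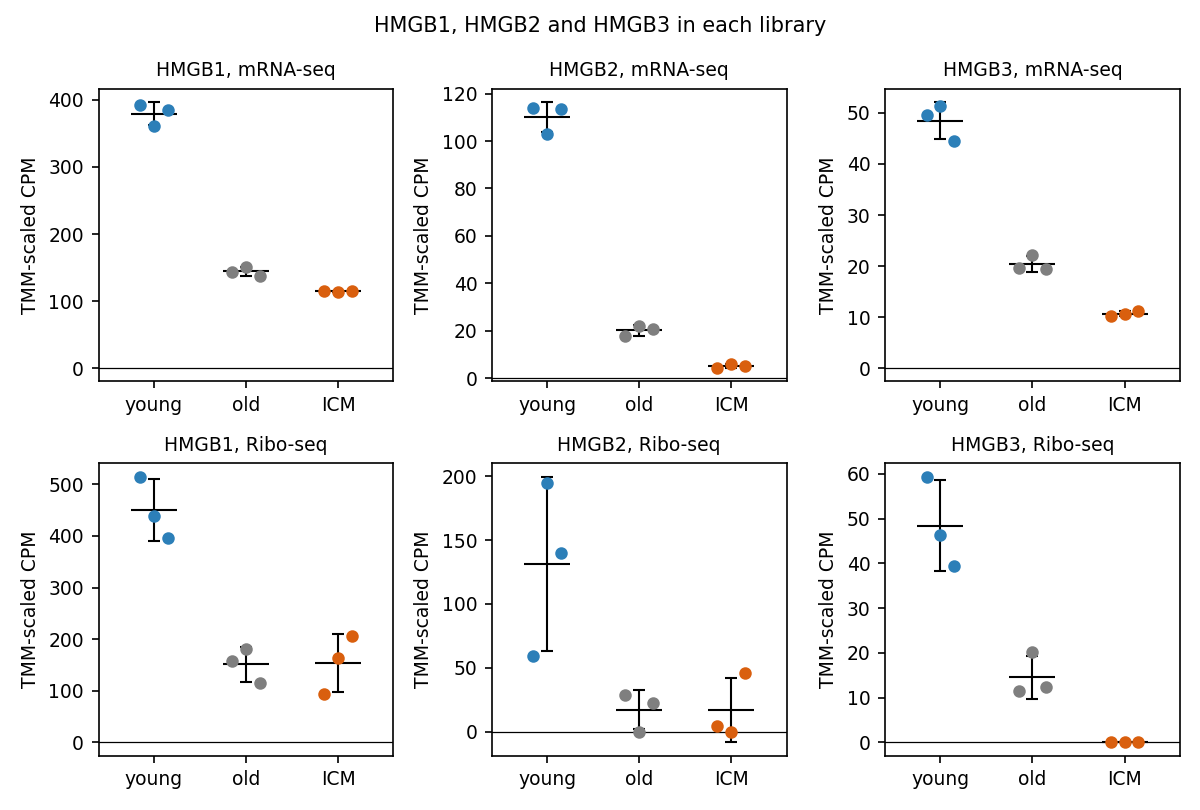
HMGB1, HMGB2 and HMGB3 in TMM-scaled CPM (vertical axes) for young, old and ICM libraries, with mRNA-seq in the upper row and CDS footprints of Ribo-seq in the lower row. Points are libraries, and bars are the mean and SD of 3, and all 3 genes lie lower in old and ICM than in young mRNA-seq libraries, with HMGB2 at 4.28 to 5.83 CPM in ICM.

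The footprints fell with the mRNAs against young cells. At the depth of the Ribo-seq libraries, HMGB1 and HMGB2 passed the filter on low counts and HMGB3 did not. HMGB2 passed through its young libraries, where it was high, so its footprint and efficiency tests concern a gene that the young group admitted. Its falls against young are read with that limit. HMGB1 and HMGB2 were called lower in ICM against young, where 12.9% of 4643 genes were called lower, and in old against young, where 17% were, and neither was called in ICM against old, where 7.62% were.

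HMGB1 had 25.7, 275 and 622 CDS footprints in young, 222, 8.67 and 56.2 in old and 19.2, 11.8 and 9.17 in ICM libraries. Scaled to depth these were 515, 440 and 396 CPM in young, 158, 181 and 115 CPM in old and 93.6, 164 and 206 CPM in ICM. The old and ICM libraries lay under every young library, as they did for 18.6% and 16.9% of genes, and overlapped each other. The log2 change was -1.73 (SE 0.29, edgeR adjusted p = 1.98e-05) in ICM against young, -1.57 (SE 0.21, adjusted p = 3.29e-07) in old against young and -0.15 (SE 0.32, adjusted p = 0.820) in ICM against old.

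HMGB2 had 3.17, 122 and 220 CDS footprints in young, 41.2, 0 and 10.7 in old and 1, 0.333 and 1.67 in ICM libraries. On counts rounded to whole numbers these were 59.4, 195 and 140 CPM in young, 29.2, 0 and 22.6 CPM in old and 4.93, 0 and 45.7 CPM in ICM libraries. Every old and every ICM library was below every young one, as was so for 18.6% and 16.9% of genes. The gap between ICM and young rested on very few reads. It ran from 45.7 CPM in ICM replicate 3, with under 2 footprints, to 59.4 CPM in young replicate 1, with 3.17. ICM replicate 3 was also above all old libraries. The young mean was 7.80 times the ICM mean of these values. All ICM libraries together held 3 footprints of HMGB2 among 350259 CDS reads, or 8.57 CPM of the pooled CDS reads. The 3 young libraries together held 346 among 2458003, or 141 CPM. The ratio of ICM to young was 0.0608, with an exact 95% interval of 0.0125 to 0.179 that covers counting error only. In the fit across genes the log2 change was -4.02 (SE 0.67, edgeR adjusted p = 1.73e-05) in ICM against young and -2.57 (SE 0.32, adjusted p = 7.27e-08) in old against young. The change in ICM against young was -5.43 without ICM replicate 3 and -3.28 without ICM replicate 1, and was called in both fits. In ICM against old it was -1.45 (SE 0.93, adjusted p = 0.343) and from -2.88 to -0.74 with single libraries left out, not called in any of these fits, and the counted ratio of 0.381 had an interval from 0.0760 to 1.18.

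HMGB3 had 3, 29 and 62.5 CDS footprints in young, 16.3, 1 and 5.5 in old and none in the ICM libraries. A count of 0 allows up to 3 counts over the ICM group, or 8.57 CPM of pooled CDS reads. This limit was 4.46-fold lower than the pooled young level of 38.4 CPM and 1.16-fold lower than the old level of 9.88 CPM. It covers counting error in the ICM group only, not error in the young or old level or the spread between libraries. In a fit without the filter on low counts, in which 10.8% of 13714 genes were called in ICM against young and 14.9% in old against young, HMGB3 was called lower in both (edgeR adjusted p = 8.50e-04 and 0.00138). The log2 change in old against young was -1.81 (SE 0.46). In ICM against old, where 5.84% were called, HMGB3 was not (adjusted p = 0.176). Both calls rest on few libraries. The call in ICM against young was lost without ICM replicate 1 (adjusted p = 0.0734), and that in old against young without old replicate 1 (0.243), young replicate 2 (0.0859) or young replicate 3 (0.0699).

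**Figure D2:**
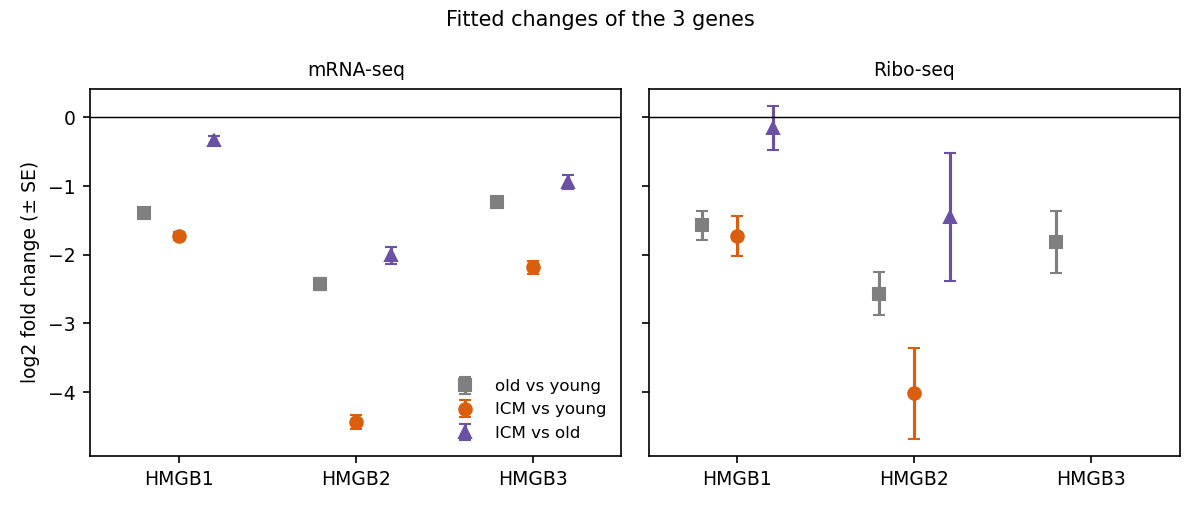
Fitted log2 fold changes (vertical axis) of HMGB1, HMGB2 and HMGB3 in mRNA-seq (left) and Ribo-seq (right), with bars of 1 SE, for old against young, ICM against young and ICM against old. The changes against young are similar in both assays, from -1.24 to -4.44 in mRNA-seq and from -1.57 to -4.02 in Ribo-seq, and HMGB3 has no Ribo-seq point in the ICM comparisons because it had no ICM footprint.

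Translational efficiency, the footprint level relative to the mRNA level, was not called different for any member. Its test was an assay-by-condition interaction, and 2.08% of 4618 genes were called in ICM against young, 1.47% in old against young and 0.282% in ICM against old. For HMGB1 the ratio of footprint CPM to mRNA CPM was 1.19 ± 0.144 (mean ± SD, n = 3 lysates) in young, 1.04 ± 0.191 in old and 1.35 ± 0.494 in ICM cells, and the groups overlapped. Its log2 change was -0.05 (SE 0.31, edgeR adjusted p = 0.956) in ICM against young, -0.15 (SE 0.22, adjusted p = 0.819) in old against young and 0.09 (SE 0.33, adjusted p = 0.953) in ICM against old. HMGB2 gave 0.44 (SE 1.16, adjusted p = 0.906), -0.02 (SE 0.38, adjusted p = 0.987) and 0.46 (SE 1.19, adjusted p = 0.935) in the same order, with errors in ICM that leave a wide range open on both sides. HMGB3, tested without the filter, gave -0.54 (SE 0.48, adjusted p = 0.858) in old against young, where 0.484% of genes were called, and with no ICM footprint no efficiency can be stated for it in ICM cells. A p that misses the threshold does not show equal efficiency.

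Within the family the balance of counted reads moved towards HMGB1. Most HMGB1 coding windows also occur in pseudogenes, so its shares and its ratios to the other members are as uncertain as its level. Levels of different genes are compared here as CDS reads per kb of coding sequence, and each member's share of the sum of the 3 is given. In mRNA-seq HMGB1 held 64.8% ± 1.36 in young, 76.3% ± 1.76 in old and 86.9% ± 2.36 in ICM libraries (mean ± SD, n = 3). HMGB2 held 27.4% ± 1.31, 15.8% ± 2.25 and 5.71% ± 1.33, and HMGB3 held 7.78% ± 0.497, 7.81% ± 1.08 and 7.39% ± 1.13. The order was HMGB1, HMGB2, HMGB3 in every young and old library, and in every ICM library HMGB3 was above HMGB2, although their ranges over the 3 libraries, 6.52% to 8.67% and 4.24% to 6.81%, overlapped.

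The per-library ratios were tested directly. HMGB1 was 2.44, 2.47 and 2.19 times HMGB2 in the young mRNA-seq libraries, 5.81, 4.68 and 4.20 times in old and 21.1, 14.3 and 12.4 times in ICM. The log2 ratio of HMGB2 to HMGB1 differed by -2.72 in ICM against young, by -1.04 in old against young and by -1.68 in ICM against old, with no overlap of the groups and p = 0.1 in each exact two-sided permutation test, the smallest that 3 against 3 allows. The log2 ratio of HMGB3 to HMGB1 differed by -0.51 (exact permutation p = 0.1) in ICM against young, by -0.24 (exact p = 0.2) in old against young and by -0.27 (exact p = 0.2) in ICM against old. Counted over all 3 regions instead of the CDS, the old against young difference turned to 0.15.

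In Ribo-seq HMGB1 held 70.5% ± 8.38 of the family's footprints per kb in young, 81.5% ± 6.50 in old and 92.1% ± 6.91 in ICM libraries. The log2 ratio of HMGB2 to HMGB1 differed by -2.06 in ICM against young (exact permutation p = 0.2), where young replicate 1, with 3.17 HMGB2 footprints, overlapped the ICM libraries. This difference was -2.81 without ICM replicate 3 and -1.46 without ICM replicate 2. The ratio of HMGB3 to HMGB1 differed by -0.19 in old against young (exact permutation p = 0.4). HMGB1 was the largest member in every Ribo-seq library, whereas the order of HMGB2 and HMGB3 varied with the few footprints counted.

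**Figure D3:**
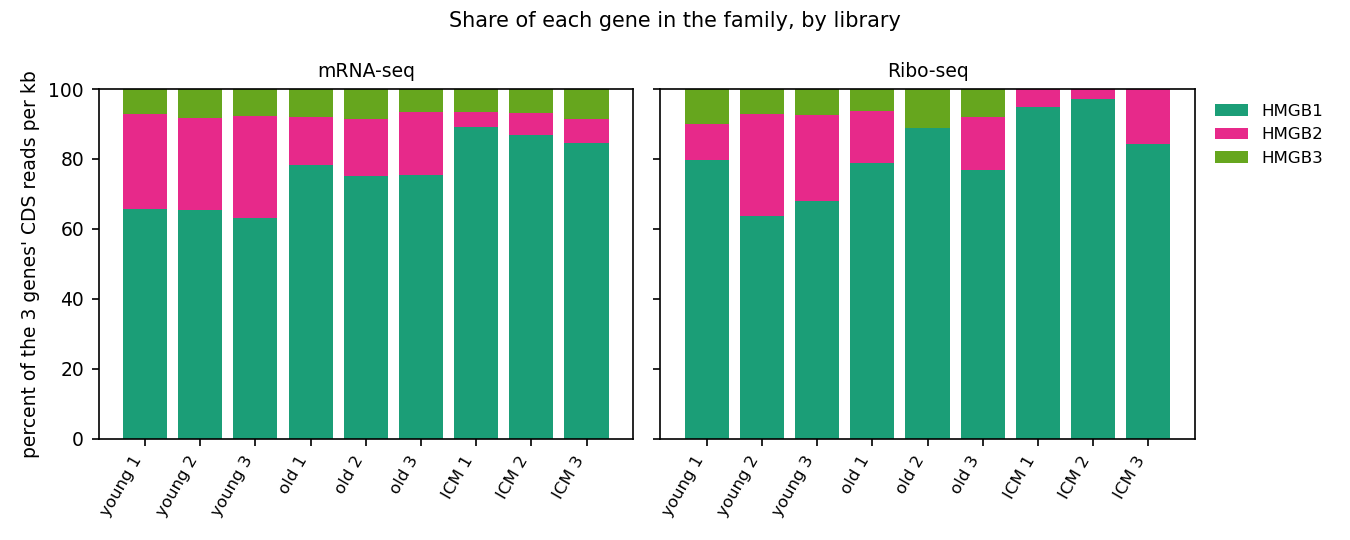
Share of HMGB1, HMGB2 and HMGB3 in the sum of their CDS reads per kb (vertical axis, percent) in each mRNA-seq library (left) and Ribo-seq library (right). In mRNA-seq the mean HMGB2 share is 27.4% in young, 15.8% in old and 5.71% in ICM libraries, and no HMGB3 footprint was counted in ICM.

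The share of reads in the 3′ UTR set the members apart. In young mRNA-seq libraries, reads in the 3′ UTR were 23.8% to 29.6% of the reads of HMGB1, 1.63% to 4.11% of those of HMGB2 and 41.8% to 45.2% of those of HMGB3. Reads in the 5′ UTR were 20.2% ± 2.47, 21.2% ± 2.85 and 9.04% ± 1.61 in the same order (mean ± SD, n = 3). These are shares of reads and are not scaled to the length of each region.

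HMGB3 was the only member with a called shift, in old against young, and the call was fragile. It had 0.952, 0.985 and 0.880 3′ UTR reads for each CDS read in young, 1.41, 1.39 and 2.08 in old and 1.49, 1.09 and 1.11 in ICM libraries, so that every old and every ICM library was above every young one, as was so for 9.61% and 10.5% of the genes tested. Relative to the typical gene, the log2 ratio of 3′ UTR to CDS reads was higher by 0.68 in old against young (SE 0.17, edgeR adjusted p = 0.0448), where 1.31% of 9729 genes were called higher and 1.84% in either direction. The call did not hold up when libraries were left out. It was lost in 8 of 9 fits that each left out 1 lysate, with differences of 0.48 (adjusted p = 0.342) without old replicate 3 to 0.87 (adjusted p = 0.0311) without old replicate 2, the fit that kept it. It was also lost with a mean of at least 10 reads required in each region (0.67, adjusted p = 0.0545). In ICM against young it was 0.38 (SE 0.20, adjusted p = 0.376), where 5.05% of genes were called, and in ICM against old, where 2.16% were, it was -0.30 (SE 0.22, adjusted p = 0.735). Neither HMGB1 nor HMGB2 was called in any comparison of 3′ UTR with CDS reads, and no member was called for the 5′ UTR, where 0.734%, 0.305% and 0.406% of 8860 genes were called in ICM against young, old against young and ICM against old. For HMGB3 the 5′ UTR difference was -0.81 (SE 0.37, adjusted p = 0.502) in ICM against young and -0.99 (SE 0.41, adjusted p = 0.535) in ICM against old.

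**Figure D4:**
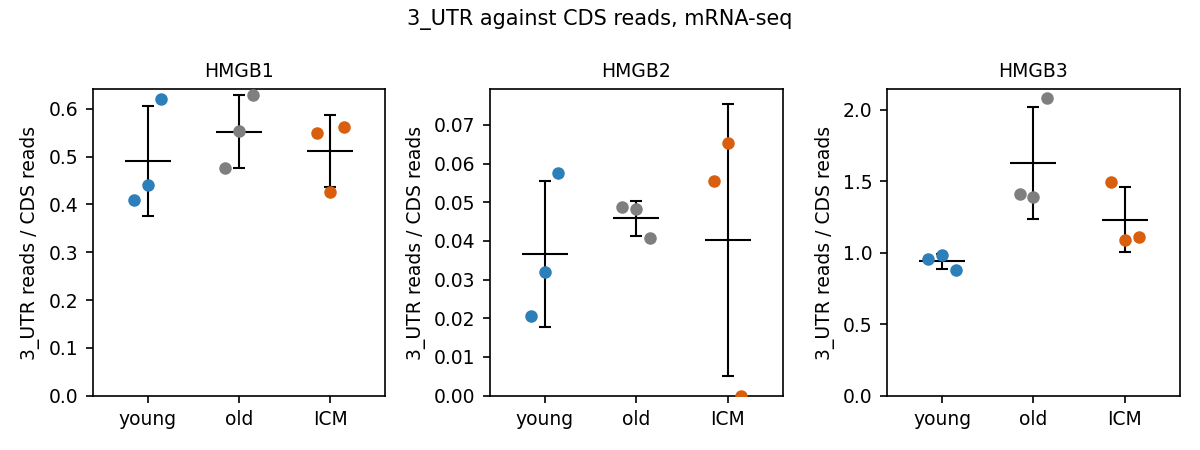
Number of 3_UTR reads for each CDS read (vertical axes) of HMGB1, HMGB2 and HMGB3 in young, old and ICM mRNA-seq libraries, with points for libraries and bars for the mean and SD of 3. HMGB3 lies at 0.880 to 0.985 in young, 1.39 to 2.08 in old and 1.09 to 1.49 in ICM.

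Like HMGB3, the pseudogene HMGB3P1 had fewer reads in old and ICM than in young libraries. Its old and ICM values, which are not scaled to depth, overlapped. It had 25.3, 37.3 and 23.7 mRNA-seq reads in young, 10.2, 15.2 and 13.5 in old and 5.67, 12.3 and 11.7 in ICM libraries. All of these values were fractions, and the files do not show how reads were divided between HMGB3 and HMGB3P1. With the HMGB3P1 reads added to HMGB3, all 3 mRNA-seq comparisons of HMGB3 kept their direction and their call.

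Proliferation genes moved with the members. The list held 24 genes of DNA replication and mitosis, and KIF20A, MKI67, CDC20 and PLK1, which act in or mark dividing cells, had the lowest changes in ICM against young (-8.24, -7.54, -7.17 and -6.97). Their summed mRNA level was 1969 to 2058 CPM in young, 607 to 672 CPM in old and 163 to 169 CPM in ICM libraries, and in mRNA-seq all 24 were called lower in ICM against young (median log2 change -4.23, over all genes -0.01) and in old against young (median -1.75, over all genes -0.01). The order young, old, ICM was that of the members. HMGB2, at -4.44 and -2.43, lay near the median of the list in ICM against young and below it in old against young, whereas HMGB1, at -1.73 and -1.40, fell by less than the median of the list in both. In Ribo-seq 22 of 23 tested proliferation genes were called lower in ICM against young, against 12.9% of all genes, and 23 of 23 in old against young, against 17%. Their summed footprints were 3942 to 4042 CPM in young, 1059 to 1408 CPM in old and 434, 750 and 1827 CPM in ICM replicates 1 to 3, so ICM replicate 3 lay above the old libraries and the order seen in mRNA was not kept there. The part of the arrest in the fall of the members was not tested.

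**Figure D5:**
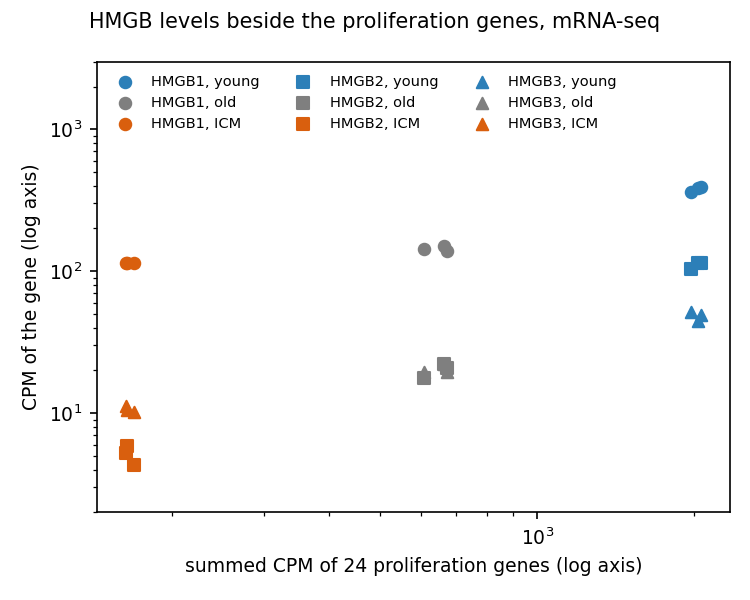
CPM of HMGB1, HMGB2 and HMGB3 (vertical, log axis) against the summed CPM of 24 proliferation genes (horizontal, log axis) in the 9 mRNA-seq libraries, with 1 point for each gene and library. The 3 conditions form separate clusters at 163 to 169, 607 to 672 and 1969 to 2058 CPM. In CPM, which are not scaled to length, HMGB2 passes from above HMGB3 in young to below it in ICM libraries.

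Factors that act on promoters of cell cycle genes were given by a list of 18. In ICM against young, where 36.1% of all genes were called lower and 34.9% higher, 12 were called lower and 2 higher (median log2 change -0.49), and in old against young, where 33.7% were called lower and 32.4% higher, 10 lower and 2 higher (median -0.42). MYBL2 and FOXM1, activators of mitotic genes, changed by -6.77 (SE 0.16) and -5.37 (SE 0.13) in ICM against young and by -1.59 and -1.91 in old against young. E2F1, an activator of S-phase genes, changed by -2.20 (SE 0.12) and -0.23 (SE 0.10), and RBL1, which encodes the repressor p107, by -1.76 and -0.93. Of the NF-Y subunits, which bind CCAAT boxes and were named after their values were seen, NFYB changed by -0.97 (SE 0.09) and -1.06 (SE 0.09) and NFYA by -0.78 and -0.77, whereas NFYC was at -0.03 and -0.11 and was not called (edgeR adjusted p = 0.747 and 0.286). The other factors named were called in both comparisons.

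The other HMG proteins did not all follow the members. Of 8 listed, 7 were tested in mRNA-seq, and 5 were called lower and 2 higher in ICM against young, against 3 lower and 2 higher in old against young. The shares over all genes were 36.1% lower and 34.9% higher in the former and 33.7% and 32.4% in the latter, so the counts in old against young are near the background. HMGA2, which binds AT-rich DNA and is known from growing and senescent cells, fell in ICM against young (-2.79, SE 0.09, edgeR adjusted p = 7.78e-18) and rose in old against young (1.24, SE 0.07, adjusted p = 1.28e-12). HMGA1, its close relative, fell by 1.72 (SE 0.08) in ICM against young and was at 0.00 (SE 0.07, adjusted p = 0.989) in old against young. HMGN2, a nucleosome-binding protein, fell in both (-1.33, SE 0.07, and -1.73, SE 0.07). In footprints HMGA2 was likewise called lower in ICM against young (-2.15, SE 0.73) and higher in old against young (0.94, SE 0.28). HMGB1, HMGB2 and HMGB3 thus fell in both states, and HMGA2 was lower in 1 and higher in the other.

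Among 19 other proteins with an HMG box, 14 were called lower and 2 higher in ICM against young mRNA-seq (median -0.42), and 12 lower and 2 higher in old against young (median -0.31), where the shares over all genes were 36.1% lower and 34.9% higher, and 33.7% and 32.4%. SSRP1, a subunit of the histone chaperone FACT, changed by -2.08 (SE 0.08) in ICM against young and -1.57 (SE 0.08) in old against young. The transcription factor SOX11 changed by -2.07 (SE 0.13) and -4.05 (SE 0.17). TCF7L1, a factor of the Wnt pathway, changed by -1.12 (SE 0.09) and -0.31 (SE 0.09), and PBRM1, a subunit of a chromatin remodeller, by -1.07 and -0.78.

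Proteins that HMGB1 meets on its way out of the nucleus and outside the cell were given by further lists. Of 12 genes of transport, redox control and modification of HMGB1, 5 were called higher and 5 lower in ICM against young, and 3 higher and 6 lower in old against young. With 34.9% of all genes called higher and 36.1% lower in the former and 32.4% and 33.7% in the latter, these counts are not read as a result about the list. TXN and PRDX1, which belong to redox control, rose by 1.92 (SE 0.08) and 1.65 (SE 0.07) in ICM against young and changed by -0.36 and 0.29 in old against young. PARP1, which modifies HMGB1 after DNA damage, changed by -1.70 (SE 0.07) and -0.98 (SE 0.06), and the deacetylase SIRT1 by -1.08 and -0.73. The footprints of TXN and PRDX1 were also called higher in ICM against young (1.18, SE 0.18, and 1.28, SE 0.17).

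Of 13 receptors and extracellular partners of HMGB1, 6 passed the filter in mRNA-seq and none in Ribo-seq. For this list and the next, 34.9% of all genes were called higher and 36.1% lower in ICM against young, and 32.4% and 33.7% in old against young. In ICM against young 2 were called, both higher. LY96, which pairs with the receptor TLR4, rose by 1.18 (SE 0.15), and CXCL12, a chemokine that binds HMGB1, rose by 0.38 (SE 0.10). In old against young 3 were called higher and 1 lower. The higher were TLR4, CXCR4 and THBD, at 5.95 (SE 0.41), 7.34 (SE 0.83) and 2.56 (SE 0.51). They averaged only 1.71, 0.61 and 0.58 CPM. The lower was CXCL12, at -5.58 (SE 0.22, edgeR adjusted p = 1.52e-15). LY96 was at -0.26 (SE 0.18, edgeR adjusted p = 0.212) and not called. Of the 5 genes of the SET complex, which holds HMGB2, 4 were called lower and 1 higher in ICM against young and 4 lower in old against young. ANP32A changed by -1.72 (SE 0.09) and -1.18 (SE 0.09), and SET by -1.45 (SE 0.06) and -1.03 (SE 0.06).

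Genes with the most similar pattern were ranked by Pearson's r of log2(CPM + 1) over the 9 mRNA-seq libraries among 10809 genes that averaged 5 CPM or more. These libraries form 3 clusters by condition, so high values are common, and r is given as a description. Nearest to HMGB1 were HNRNPA1 (r = 0.998), an RNA-binding protein, SMC3 (0.998), a cohesin subunit, and NUCKS1 (0.998), a chromatin protein. Nearest to HMGB2 were YARS (0.998), a tRNA synthetase, PTMA (0.997), a histone-binding protein, and DNAJC9 (0.997), a histone chaperone. Nearest to HMGB3 were CENPO (0.999) and ZWILCH (0.996), of the kinetochore, and TUBA1C (0.997), a tubulin. HMGB2 ranked 10th among the genes nearest to HMGB3 and HMGB3 ranked 22nd among those nearest to HMGB2 (r = 0.995), while HMGB1 ranked 548th for HMGB2 (r = 0.964) and 509th for HMGB3 (r = 0.964).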

How the data were processed

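Ribo-seq and mRNA-seq were made from lysates of young, old and ICM-treated IMR90 cells, with 3 replicates of each condition and assay, 18 libraries in all. The tables hold each gene's expected counts, as deposited by the authors after assigning reads to the 5′ UTR, CDS, 3′ UTR and other classes, with fractions and no scaling to depth. The submitters' processing notes name STAR 2.6.0c, featureCounts, DESeq2, deepTools and GRCh37 without roles, so the build and annotation of these tables are not given in the sources used here. Groups and replicate numbers came from the sample titles.

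Counts were rounded to whole numbers. CDS reads were used for Ribo-seq, and the 5′ UTR, CDS and 3′ UTR were summed for mRNA-seq. Each assay was fitted over all its genes and 9 libraries with edgeR 4.0.16 in R 4.3.3 (quasi-likelihood test, TMM scaling, filterByExpr), with Benjamini-Hochberg adjustment of two-sided p-values and calls under 0.05. SE (log2 scale) were derived from each fitted change and F statistic. Translational efficiency was the interaction of assay and condition over 18 libraries with the lysate as a block. The 3′ UTR and 5′ UTR were tested against the CDS as an interaction with a library block, each region with its own scaling. HMGB3 did not pass the Ribo-seq filter and was fitted without it. The study used anota2seq with a threshold of 0.15 for its own translation analysis, and 0.15 was tried as an alternative.

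Ratios between members were tested by exact two-sided permutation over libraries. Coding lengths came from GENCODE v44 on GRCh37 in place of a protein table, and exact matches of 29- and 50-base coding windows were searched on both strands of GRCh37. These window lengths stand for a footprint and an mRNA read and are not read lengths of the files. Promoters came from RefSeq on GRCh38.p14. A count of 0 allows up to 3 counts, and intervals (95%, exact conditional binomial, on pooled counts) cover counting error only, because reads without molecular identifiers are not independent molecules. Named genes were, from each list, the 2 to 4 called genes with the largest change in ICM against young mRNA-seq and a mean of at least 5 CPM, and the 3 genes nearest in pattern to each member. Markers of cell types, the NF-Y subunits and TLR4, CXCR4 and THBD were named after their values were seen. Although the rule takes the members by symbol alone, the members and lists were chosen with earlier results of these data known. Same-numbered libraries of an assay did not deviate together (r from -0.0928 to 0.129 in mRNA-seq and from 0.00210 to 0.0387 in Ribo-seq), so the number was not used as a pairing within an assay. The 2 libraries of a lysate are paired by the study's methods (r from -0.0711 to 0.119). The fits were tested on simulated data.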

Additional observations from a re-analysis of the deposited data

How the results depend on the processing

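Of 181 alternative fits of the 10 falls of HMGB1 and HMGB2 in both assays and of HMGB3 in mRNA-seq against young, 181 kept direction and call. Those at an adjusted p under 0.15 only relaxed the threshold of the main fit, so they could not lose a call. Settings in which a member could not be fitted are not among the 181. HMGB2 footprints could not be fitted with thinned libraries or without young replicate 2 or 3, nor, in ICM against young, with only the compared groups, since too few reads were left for the filter. Settings without the young libraries that admitted HMGB2 are thus missing, so the tally adds no support for its footprint falls. Other results moved as follows. Thinned to the shallowest library, HMGB1 footprints in ICM against old turned to 0.60, HMGB3 footprints in old against young were at -0.26, and the adjusted p of HMGB3 in ICM against young was 0.385. When mRNA-seq was reduced to Ribo-seq depth, HMGB1 in ICM against old was -0.29 and not called, and its efficiency in ICM against young was 0.026 (0.037 with DESeq2 1.42.0). The HMGB3 3′ UTR difference in old against young was 0.67 and not called with a mean of at least 10 reads, and its call was lost in 8 of 9 fits without 1 lysate. Counted over 3 regions, the log2 ratio of HMGB3 to HMGB1 was -0.60 in ICM against old and 0.15 in old against young.

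The replicate block put HMGB3 footprints in old against young at -1.78, no longer called, and changed no other call of a member. With the replicate block 741 genes were called in Ribo-seq ICM against young (1236 without) and 653 in old against young (1685 without). Without the lysate as a block, efficiency calls were 280, 437 and 63 in ICM against young, old against young and ICM against old, against 96, 68 and 13. The causes of these shifts were not tested.

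Other counts of called genes moved as follows. With DESeq2 they were 688, 530 and 341 in Ribo-seq (ICM against young, old against young, ICM against old; main counts 1236, 1685 and 623) and 34, 15 and 7 for efficiency. At an adjusted p under 0.15 they were 1020 in Ribo-seq ICM against old and 298, 127 and 56 for efficiency. Thinned, they were 261, 176 and 198 in Ribo-seq, 1815, 2578 and 1189 in mRNA-seq (main counts 9357, 8709 and 8338) and 47 for efficiency in ICM against young. With only the compared groups, Ribo-seq gave 813 in ICM against young and 3142 in old against young. Without young replicate 1 and old replicate 2, the libraries with the lowest CDS share, efficiency in ICM against old gave 38. Without the library block, 98 genes (main 65) were called for the 5′ UTR in ICM against young.

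Leaving out each lysate in turn gave these ranges for members that changed sign or lost a call, as log2 differences. For HMGB1 the 3′ UTR ratio was -0.15 to 0.051 in ICM against old and -0.051 to 0.24 in ICM against young. For HMGB1 the 5′ UTR ratio was -0.037 to 0.14 in ICM against young. For HMGB1 footprints the range was -0.43 to 0.21 in ICM against old. For HMGB1 efficiency the range was -0.14 to 0.48 in ICM against old and -0.27 to 0.34 in ICM against young. For HMGB2 the 3′ UTR ratio was -0.80 to 0.49 in ICM against old, -0.56 to 0.74 in ICM against young and -0.0069 to 0.71 in old against young. For HMGB2 the 5′ UTR ratio was -0.20 to 0.42 in ICM against old, -0.21 to 0.41 in ICM against young and -0.054 to 0.056 in old against young. For HMGB2 efficiency the range was -0.98 to 1.04 in ICM against old, -0.99 to 0.96 in ICM against young and -0.57 to 0.094 in old against young. For HMGB3 the 3′ UTR ratio was 0.48 to 0.87 in old against young. For HMGB3 the 5′ UTR ratio was -0.24 to 0.41 in old against young. For HMGB3 footprints the adjusted p was 0.000713 to 0.0734 in ICM against young and the log2 change was -1.98 to -1.66 in old against young. Apart from HMGB3 footprints and its 3′ UTR ratio, none of these was called with all libraries or without any of them. Counts of called genes ranged for the 3′ UTR 130 to 290 in ICM against old and 107 to 187 in old against young, for the 5′ UTR 18 to 38 in ICM against old and 10 to 35 in old against young, for Ribo-seq 332 to 924 in ICM against old, 619 to 1758 in ICM against young and 516 to 2531 in old against young and for efficiency 3 to 44 in ICM against old, 35 to 157 in ICM against young and 18 to 124 in old against young.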
